A study of Mus musculus with 6 samples.

Results

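ADP-ribosyltransferases linked to interferon, and the ubiquitin ligase gene Dtx3l, were followed in SB28, a mouse glioma cell line. The 9 genes are Parp3, Parp4, Parp8, Parp9, Parp10, Parp11, Parp12, Parp14 and Dtx3l, taken by symbol out of the 55453 symbols of the deposited count table, and Parp1 was left out by the choice of members. All 9 were in the table and all 9 passed the filter on low counts. RNA was poly(A)-selected from 3 libraries whose genotype label is PP2A KO and from 3 labelled Wild Type, all of strain C57BL/6 with SB28 as the source. PP2Ac is the catalytic subunit of protein phosphatase 2A, and the series title places the comparison within STING and type I interferon signalling. The design text of the series describes SB28 tumours in WT hosts and in LysMcrePP2Acfl/fl hosts, where Cre acts in myeloid cells, so the labels do not settle whether tumour or host cells carried the deletion. Knockout and wild type below name the labelled groups, and no library is labelled as treated with interferon.

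ADP-ribosyltransferases move ADP-ribose from NAD onto proteins or nucleic acids. Parp1 and a few relatives build chains, whereas most of the family attach a single unit, and some members have lost catalytic activity but still bind ADP-ribose through macrodomains. Several of the single-unit enzymes are known as interferon-stimulated genes: type I interferon signals through its receptor and the JAK kinases to a complex holding STAT2 and IRF9, which binds a promoter element called ISRE. DTX3L is a ubiquitin ligase of the Deltex family that works as a heterodimer with PARP9 and has been tied to antiviral responses.

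All 9 genes were higher in the knockout. The adjusted p was under 0.05 for each, in the quasi-likelihood test of edgeR with Benjamini-Hochberg adjustment over 14877 genes. But the test called 64% of those genes in either direction, 31.9% as higher and 32.1% as lower, so the calls are read against those shares. The 9 genes were chosen with earlier results of these data known, for which the shares make no allowance. Sizes divided the genes. Dtx3l, Parp14, Parp11, Parp10, Parp9, Parp4 and Parp12 rose between 1.80-fold and 2.48-fold, while Parp8 rose 1.26-fold and Parp3 1.16-fold. Those 7 genes also passed edgeR's test against a 1.5-fold change, which called 13.5% of all genes as higher, and Parp3 and Parp8 did not (adjusted p = 0.999999 for both). The median log2 fold change of the 9 was 1.08, beside -0.01 over all genes tested.

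Marker genes bear on what the libraries held. The pan-leukocyte gene Ptprc lay between 0.0488 and 0.252 CPM (depth-scaled read counts, with TMM factors) in the 6 libraries, Adgre1, Fcgr1, Cd3e, Cd3g, Cd8a and Ms4a1 had 0 counts throughout, and Lyz2, the gene behind LysM, had 1 count over wild type and 44 over knockout, at most 0.439 CPM. Of 10 macrophage and microglia markers, 2 passed the filter, Tmem119, which fell 2.21-fold, and Cd68, which rose 1.47-fold (edgeR adjusted p = 3.09e-05 and 0.00346). The summed level of the 10, 86.9 to 107 CPM in wild type, against 42.0 to 52.1 CPM in knockout, was mostly Tmem119. Of the endothelial markers Cdh5 was abundant, at means of 415 and 435 CPM, but Pecam1 was at 0.282 and 0.344 CPM. The other endothelial markers were low and went opposite ways, Kdr rising 4.68-fold from 1.65 to 7.78 CPM and Tek falling 4.68-fold from 1.40 to 0.295 CPM (edgeR adjusted p = 2.33e-06 and 5.49e-05). Neutrophil markers summed to at most 0.0783 CPM in wild type, and to between 3.32 and 3.78 CPM in knockout, nearly all S100a8, with S100a9 and Csf3r at 0. Among the glial and progenitor markers set for the glioma line, Olig1 and Olig2 were at 0, and Vim, Nes, Sox2 and Cd44 were high. Vim fell 2.55-fold, Nes 2.24-fold and Sox2 1.48-fold, while Pdgfra rose 1.23-fold (edgeR adjusted p = 0.00376). Cd44 and Pdgfa did not pass (edgeR adjusted p = 0.507 and 0.0893), and Gfap had 5 counts over wild type and 10 over knockout. Their class summed to between 6034 and 6196 CPM in wild type, against 3011 to 3027 CPM in knockout. The part of these markers in the results was not tested. In bulk RNA fewer cells of a type and less RNA per cell cannot be told apart. Ppp2ca, which encodes PP2Ac, was at 274, 244 and 247 CPM in wild type 1, 2 and 3, against 217, 187 and 193 CPM in knockout 1, 2 and 3, 1.28-fold lower (adjusted p = 0.00377, edgeR). Ppp2cb, the other catalytic subunit gene, was 1.45-fold higher. Library totals ran from 38735864 to 49344079 counts, and at that depth each of the 9 genes had between 515 and 5571 counts in a library. The libraries numbered 1 stood apart from numbers 2 and 3 in both groups: chi-square per degree of freedom, over genes with at least 20 counts in a pair, was 29.7 to 48.4 against the other libraries of their group, and 4.61 and 3.41 between numbers 2 and 3 of wild type and of knockout.

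Parp14, Dtx3l and Parp9 share a stretch of chromosome 16, and their arrangement matters for reading the counts. On GRCm38, Parp14 (ENSMUSG00000034422.14) runs from 35832874 to 35871544 on the minus strand. Dtx3l (ENSMUSG00000049502.17) runs from 35926511 to 35939151 on the minus strand, and Parp9 (ENSMUSG00000022906.15) from 35938470 to 35972605 on the plus strand. Dtx3l and Parp9 thus face away from each other and overlap by 682 bases at their starts, including 458 exon bases, which are 8% of the Dtx3l exon bases and 9.4% of those of Parp9. The strand setting of the counting is not given in the sources used here, so reads from those bases cannot be told apart between the partners. The other genes lie apart: Parp3 on chromosome 9 (106470322 to 106476949, minus), Parp4 on 14 (56575619 to 56659794, plus), Parp8 on 13 (116854820 to 117025537, minus) and Parp10 on 15 (76231174 to 76243441, minus). Parp11 (127446840 to 127494261, plus) and Parp12 (39086410 to 39118349, minus) are both on chromosome 6.

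Promoter windows of 300 bases, from 250 before to 50 after a RefSeq start site (GRCm38.p6), were at hand for 6 of the 9 genes, Parp3, Parp4, Parp8, Parp11, Parp12 and Dtx3l, and not for Parp9, Parp10 and Parp14. They were searched on both strands for the ISRE letters, GAAA and GAAA with any 2 bases between them, and for those of the palindromic GAS element of interferon-gamma responses, TTC and GAA with any 3 bases between them. ISRE letters were found in the windows of Parp4 and Parp11, 2 of 6 genes, and in 3.44% of 32851 windows of all genes. GAS letters were found in Parp11 alone of the 6, and in 8.30% of all windows. A letter match is a description and not a bound site. The windows of Parp4 and Parp11 are shown because they hold the matches, which are in capitals, and that of Dtx3l because it lies inside the Parp9 gene and covers part of the overlap. Each is printed from 5′ to 3′ on the strand of its gene.
Parp4, chr14:56575369-56575668, plus strand: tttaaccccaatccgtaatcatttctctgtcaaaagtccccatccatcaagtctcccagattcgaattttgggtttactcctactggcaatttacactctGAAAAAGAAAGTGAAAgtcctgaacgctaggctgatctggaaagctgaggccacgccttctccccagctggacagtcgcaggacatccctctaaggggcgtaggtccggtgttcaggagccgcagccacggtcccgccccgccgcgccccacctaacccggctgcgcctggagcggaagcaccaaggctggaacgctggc
Parp11, chr6:127446590-127446889, plus strand: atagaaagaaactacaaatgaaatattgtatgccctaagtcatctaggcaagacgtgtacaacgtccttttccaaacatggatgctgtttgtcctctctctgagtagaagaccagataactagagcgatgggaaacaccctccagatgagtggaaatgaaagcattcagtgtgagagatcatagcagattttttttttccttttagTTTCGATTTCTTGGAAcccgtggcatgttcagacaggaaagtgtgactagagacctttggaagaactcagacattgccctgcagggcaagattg
Dtx3l, chr16:35938978-35939277, minus strand: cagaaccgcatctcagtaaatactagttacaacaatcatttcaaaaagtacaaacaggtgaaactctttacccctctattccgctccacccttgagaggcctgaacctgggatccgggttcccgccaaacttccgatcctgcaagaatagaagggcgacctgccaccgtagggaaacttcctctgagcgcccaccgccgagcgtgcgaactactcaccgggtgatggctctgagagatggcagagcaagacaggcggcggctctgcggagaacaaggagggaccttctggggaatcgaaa
In Parp4 the capitals are 2 overlapping ISRE matches, at bases 101 to 110 and 107 to 116 of the window. In Parp11 an ISRE match on the reverse strand (bases 207 to 216) runs into a GAS match (214 to 222), sharing 3 bases with it. Parp11 has a second listed start, with the window chr6:127453377-127453676, which holds neither set of letters. The deposited counts sum over the gene and do not tell the starts apart.

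Dtx3l had the highest fold change of the 9. It was at 42.7, 38.6 and 37.0 CPM in wild type 1, 2 and 3, against 109.8, 92.6 and 90.9 CPM in knockout 1, 2 and 3. Every knockout library lay above every wild-type library, a separation found upward in 33.9% of all tested genes. On average it went from 39.4 ± 2.95 to 97.8 ± 10.5 CPM (SD, n = 3), or a log2 fold change of 1.31 (edgeR adjusted p = 3.96e-06, SE 0.10). Of all tested genes, 92.1% had a lower fold change.

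Parp9, which encodes the partner of DTX3L and has macrodomains that read ADP-ribose, rose almost as far. Its levels were 47.5, 39.9 and 41.5 CPM in wild type 1, 2 and 3, against 103, 85.4 and 85.5 CPM in the knockout libraries in the same order. The groups were separate, and in both the library numbered 1 was the highest. The log2 fold change was 1.08 (edgeR adjusted p = 1.73e-05, SE 0.10), from 43.0 ± 3.99 to 91.2 ± 9.89 CPM (SD, n = 3).

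Since the partners act as a heterodimer, their balance was compared within each library, where scaling has no part. The Dtx3l count per Parp9 count was 0.899, 0.966 and 0.891 in wild type 1, 2 and 3, against 1.07, 1.08 and 1.06 in knockout 1, 2 and 3. The ratio was higher in each knockout library than in any wild-type library, with means of 0.919 ± 0.0411 and 1.07 ± 0.0104 (SD, n = 3). A two-sided exact permutation test gave p = 0.1, the smallest that this test can give for 3 libraries against 3, so it cannot reach 0.05 here. The ratio still carries the shared exon bases described above.

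Parp14, a large macrodomain protein that attaches single ADP-ribose units and is known as a cofactor of STAT6 and as an antiviral factor, lies beside this pair. It was at 55.0, 46.2 and 46.1 CPM in wild type 1, 2 and 3, against 125, 106 and 103 CPM in knockout 1, 2 and 3. Again the groups did not overlap, and the libraries numbered 1 were the highest of their groups. The rise from 49.1 ± 5.12 to 111 ± 11.7 CPM (SD, n = 3) was a log2 fold change of 1.18 (edgeR adjusted p = 1.14e-05, SE 0.10). An unnamed transcript model inside Parp14, Gm49730, shares exon bases with it on the same strand, 1.18% of the Parp14 exon bases. Hspbap1, the tested gene on the far side of Parp14, was at 18.4 ± 1.26 CPM in wild type, against 19.2 ± 0.463 CPM in knockout, and did not pass (edgeR log2 fold change 0.06, adjusted p = 0.526, SE 0.08), and its sign turned with upper-quartile scaling.

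Neighbours of all 9 genes were looked up in the same way, as the nearest tested gene on either side. Of 15 such neighbours that are not themselves among the 9, 3 were higher, 2 lower and 10 did not pass, with a median log2 fold change of 0.06. With the library number as a block in the fit, Cenpj also came out higher (adjusted p = 0.022) and Pcbp4 and Rrp9 lower (5.48e-07 and 0.00116). That fit called 38.5% of all genes as higher and 38.8% as lower. Without the block, those higher were Isl1, 545130 bases from Parp8, Grina beside Parp10, and Gm49730, which overlaps Parp14. Isl1 and Gm49730 were low, at 0.600 and 0.139 CPM in wild type, against 4.39 and 0.552 CPM in knockout. Those lower without the block were Plec, which overlaps Parp10, and Hipk2, 210244 bases from Parp12. Besides Hspbap1, Pcbp4, Rrp9 and Cenpj, those that did not pass were Gm4032, Emb, Gm15564, 9330179D12Rik, Cracr2a and 4930599N23Rik. Plec and Parp10 share 205 exon bases on the same strand, 4.8% of the Parp10 exon bases, and moved in opposite directions: Plec fell from 2151 ± 394 to 1159 ± 167 CPM.

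**Figure D1:**
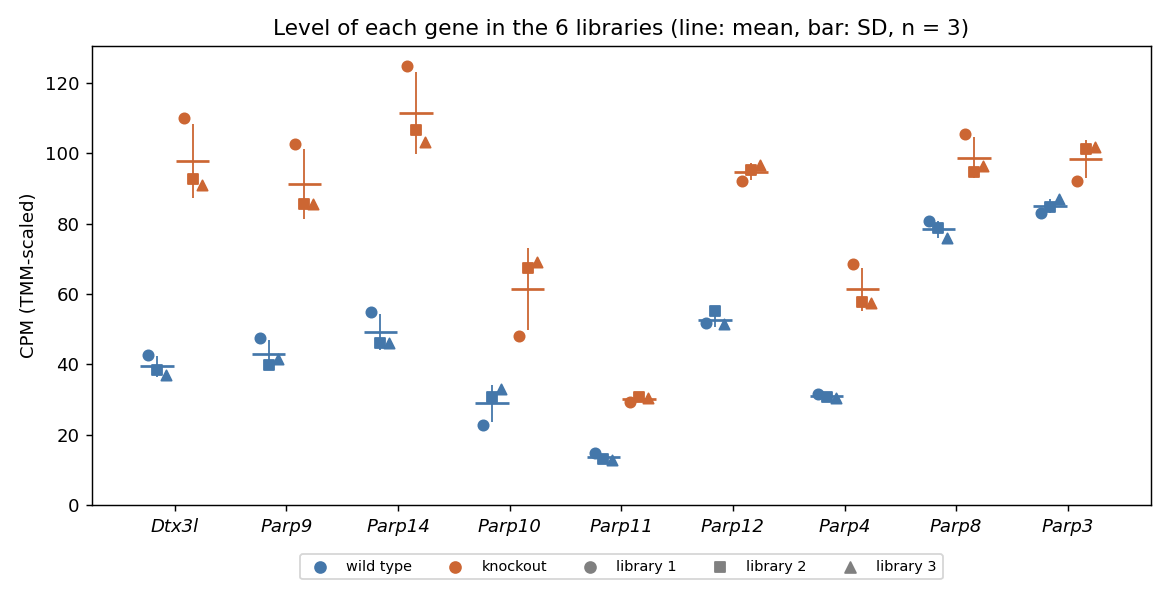
Levels in TMM-scaled CPM (vertical axis, from 0) of the 9 genes in the 6 libraries, wild type in blue and knockout in orange, with a marker shape for each library number, a line at the group mean and a bar of 1 SD. The groups are apart for all 9 genes, widely from Dtx3l to Parp4 and narrowly for Parp8 and Parp3. Library 1 (circles) is the highest of both groups for Dtx3l, Parp9, Parp14, Parp4 and Parp8, and the lowest of both for Parp10 and Parp3.

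Parp10, Parp11 and Parp12, which like Parp14 encode enzymes that attach single units, rose as well. Parp10, which was found as a binding partner of MYC, was at 22.9, 30.7 and 33.2 CPM in wild type 1, 2 and 3, against 48.0, 67.3 and 69.0 CPM in the knockout libraries. Here the libraries numbered 1 were the lowest of both groups, and the groups still did not overlap. The spread made its error the largest of the 9: 28.9 ± 5.35 against 61.4 ± 11.6 CPM (SD, n = 3), or a log2 fold change of 1.09 (edgeR adjusted p = 0.000453, SE 0.17).

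Parp11, whose protein is known to sit at the nuclear envelope and to act on turnover of the type I interferon receptor, was the least abundant of the 9. Wild type 1, 2 and 3 held 14.8, 13.2 and 13.0 CPM and knockout 1, 2 and 3 held 29.4, 30.7 and 30.4 CPM. The knockout libraries lay close together, all above wild type. The log2 fold change was 1.14 (edgeR adjusted p = 4.19e-06, SE 0.08), from 13.7 ± 1.01 to 30.2 ± 0.679 CPM (SD, n = 3).

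Parp12 encodes a zinc finger protein that inhibits several RNA viruses. It was at 51.6, 55.1 and 51.4 CPM in wild type, against 92.0, 95.2 and 96.8 CPM in knockout, libraries 1, 2 and 3 in that order. Wild type 2 was the highest of its group, and knockout 1 the lowest of its own. The means of 52.7 ± 2.04 and 94.7 ± 2.43 CPM (SD, n = 3) gave a log2 fold change of 0.84 (edgeR adjusted p = 5.69e-06, SE 0.07).

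Parp4, Parp8 and Parp3 have the least established ties to interferon. Parp4 encodes the ADP-ribosyltransferase of vault particles, large ribonucleoprotein shells of the cytoplasm. Its levels were 31.6, 30.8 and 30.5 CPM in wild type 1, 2 and 3, against 68.4, 57.9 and 57.6 CPM in knockout 1, 2 and 3. Wild type varied little, and knockout 1 was the highest of its group. The log2 fold change was 0.99 (edgeR adjusted p = 1.15e-05, SE 0.09), of the size seen for Parp9 and Parp10. An antisense RNA, Gm16573, covers 5.13% of the Parp4 exon bases.

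Parp8, a little-studied enzyme closely related to Parp6, was at 80.7, 78.7 and 75.9 CPM in wild type, against 105, 94.6 and 96.3 CPM in knockout. The groups did not overlap. Its log2 fold change was 0.33 (edgeR adjusted p = 0.00263, SE 0.07).

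Parp3 takes part in the repair of DNA breaks and is activated by them, as Parp1 is. It was at 83.0, 84.8 and 86.9 CPM in wild type, against 92.0, 101 and 102 CPM in knockout. The log2 fold change of 0.21 (edgeR adjusted p = 0.0227, SE 0.07) was the lowest of the 9. The call did not hold when any library but knockout 1 was left out (adjusted p from 0.0544 to 0.0890), nor with upper-quartile scaling (0.0893). Over its 12 alternatives the adjusted p ran from 4.42e-06 to 0.999999, and 5 of them kept it past the threshold.

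The library numbers gave a further view of the same values, since the libraries numbered 1 deviated together from the others of their groups. Parp10 was 0.717 times as high in wild type 1 as in the mean of wild type 2 and 3, and 0.705 times as high in knockout 1 as in the mean of knockout 2 and 3. For Parp14 these figures were 1.19 and 1.19, and for Parp9 1.17 and 1.20. Taken between libraries of the same number, the knockout level of Parp10 was 2.10, 2.19 and 2.08 times that of wild type, and that of Parp14 was 2.27, 2.30 and 2.24 times. The ratios of Dtx3l lay between 2.40 and 2.57 and those of Parp9 between 2.06 and 2.16, without overlap. Parp11 varied more, from 1.98 for number 1 to 2.34 for number 3, and Parp4 from 1.88 to 2.17. For Parp3 the ratios were 1.11, 1.19 and 1.17. With the library number as a block the standard error of Parp10 fell to 0.04 and that of Parp3 to 0.04, with log2 fold changes of 1.09 and 0.21.

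**Figure D2:**
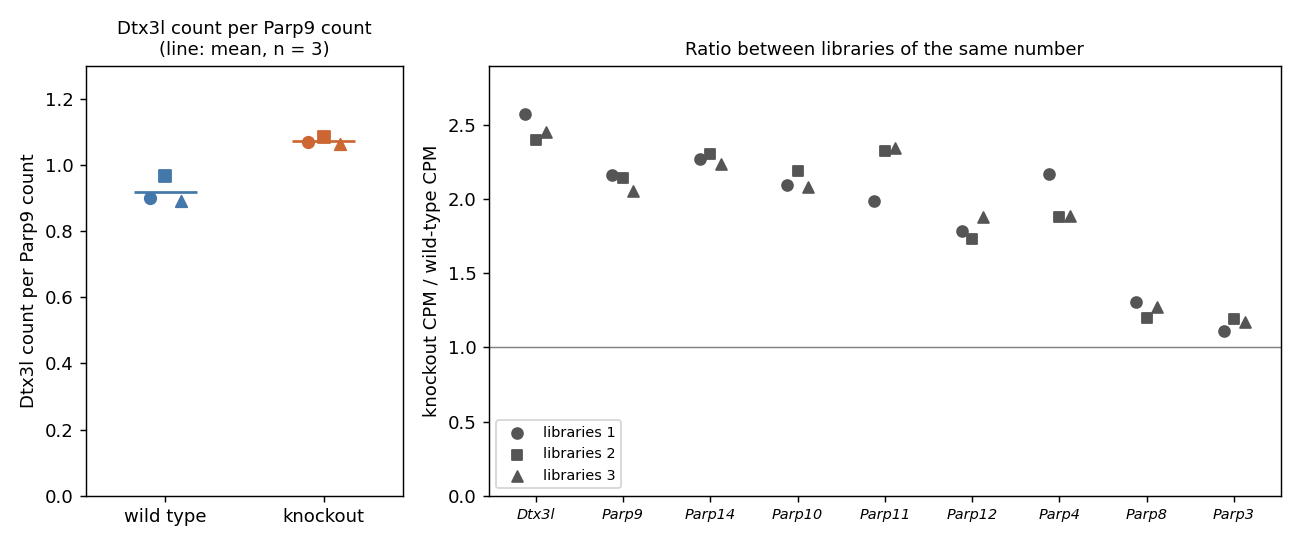
Left, the Dtx3l count per Parp9 count in each library (vertical axis, from 0), with a line at the group mean of 3 libraries. Right, for each gene, knockout CPM over wild-type CPM between libraries of the same number (shapes), with a grey line at 1. Every ratio on the right lies above 1, and those of Parp8 and Parp3 lie nearest to it.

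Abundance was compared between genes only per length, as CPM per kilobase of merged exons. In wild type Parp3 led at 23.0 ± 0.528 CPM per kilobase, followed by Parp12 at 13.2 ± 0.510 (SD, n = 3). Parp8 and Parp9 came next, at 8.83 ± 0.274 and 8.82 ± 0.818, and their library values overlapped. So did those of Dtx3l (6.89 ± 0.515), Parp10 (6.77 ± 1.25) and Parp14 (5.28 ± 0.550) from each to the next. Parp4 (4.74 ± 0.0844) and Parp11 (1.95 ± 0.143) were the lowest and stood apart from their neighbours in the order. In knockout Parp3 (26.6 ± 1.48) and Parp12 (23.7 ± 0.607) again led, while Parp9 and Dtx3l reached 18.7 ± 2.03 and 17.1 ± 1.83 CPM per kilobase. Parp8 went from position 3 in wild type to position 7 in knockout, at 11.1 ± 0.653, where its values overlapped those of Parp14 (11.98 ± 1.26).

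The rest of the family was called in both directions. Of the 14 other ADP-ribosyltransferases listed, 8 passed the filter, of which 4 rose, 1 fell and 3 did not pass the test. Beside them, 31.9% of all tested genes were called higher and 32.1% lower. The median log2 fold change of the 8 was 0.25. Parp1, which builds poly(ADP-ribose) at DNA breaks, fell 2.89-fold, with a log2 fold change of -1.53 (edgeR adjusted p = 4.67e-07, SE 0.08), from 169 ± 7.47 to 58.3 ± 4.57 CPM. Parp2, its closest partner in repair, did not pass, with 21.9 ± 2.38 and 20.6 ± 0.834 CPM (adjusted p = 0.450). Its log2 fold change of -0.09 turned to 0.00731 without wild type 1. Parp16, an enzyme of the endoplasmic reticulum membrane, was at 3.58 ± 0.341 and 3.40 ± 0.243 CPM (adjusted p = 0.600).

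Tnks, which encodes tankyrase, rose from 188 ± 3.31 to 395 ± 30.1 CPM (1.07 ± 0.07 SE on the log2 scale), as far as the interferon-linked genes, whereas its paralog Tnks2 rose by 0.24 (edgeR adjusted p = 0.0153, SE 0.07). Parp6 rose from 12.4 ± 0.206 to 23.9 ± 2.09 CPM (0.95 ± 0.09 SE on the log2 scale), against 0.33 (SE 0.07) for its relative Parp8. The difference between these fold changes was not tested. Zc3hav1 encodes the antiviral protein ZAP, a catalytically inactive family member that binds viral RNA, and rose 1.60-fold, from 151 ± 8.40 to 242 ± 19.0 CPM (adjusted p = 7.07e-05, edgeR). Tiparp, a target of the aryl hydrocarbon receptor, had 186 ± 24.6 and 224 ± 43.0 CPM and did not pass (log2 fold change 0.27, adjusted p = 0.125), and passed with the library number as a block (adjusted p = 2.41e-05). The toxin-related transferase genes were nearly silent. Art5 had 27 counts over wild type and 19 over knockout, Art3 1 and 6, Art2a 1 and 0, Art2b 2 and 0, and Art4 1 and 0. Art1 had 0 counts in both groups, where the floor of 3 counts a group stands at 0.0222 CPM for wild type and 0.0240 CPM for knockout.

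Of the other Deltex ligases, Dtx3 rose from 41.6 ± 4.68 to 71.6 ± 8.77 CPM (edgeR log2 fold change 0.78, adjusted p = 0.000302, SE 0.11) and Dtx4 from 13.9 ± 0.489 to 22.1 ± 0.339 CPM (0.67, SE 0.08, adjusted p = 7.04e-05, edgeR). Dtx2 did not pass, with 19.9 ± 3.56 and 25.5 ± 4.76 CPM (log2 fold change 0.36, adjusted p = 0.0897), and passed with the library number as a block (adjusted p = 3.5e-05). Dtx1 had 2 counts in each group.

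**Figure D3:**
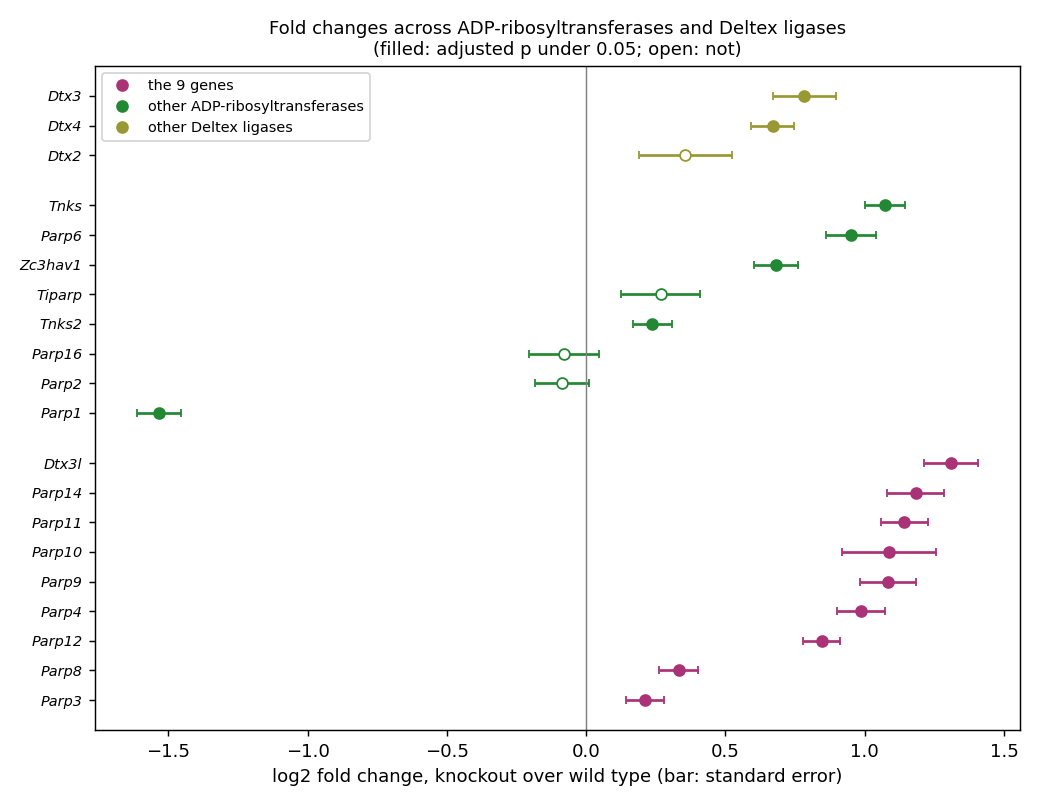
Log2 fold change of knockout over wild type (horizontal axis) with its standard error for the 9 genes, the other tested ADP-ribosyltransferases and the other tested Deltex ligases; filled points passed an adjusted p of 0.05. The 9 genes lie between 0.21 and 1.31, Tnks and Parp6 lie among them, and Parp1 lies alone at -1.53.

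The genes that remove or read ADP-ribose were called in both directions, at shares near those of all genes (31.9% higher and 32.1% lower). Among 16 tested readers and erasers 6 rose, 4 fell and 6 did not pass, with a median log2 fold change of 0.06, and with the library number as a block 7 rose and 7 fell, where that fit called 38.5% of all genes as higher and 38.8% as lower. The largest changes among those past the threshold were those of Nudt9, a hydrolase of free ADP-ribose (31.4 ± 2.19 to 54.4 ± 2.18 CPM, log2 fold change 0.79), Rnf146, a ubiquitin ligase that recognises poly(ADP-ribose) (33.2 ± 0.653 to 50.7 ± 3.76 CPM, 0.61), and H2afy, the macrodomain histone macroH2A1 (81.5 ± 1.06 to 124 ± 2.99 CPM, 0.60). Among 18 tested genes of NAD supply and use, 8 rose, 4 fell and 6 did not pass, with a median of 0.19. Nnmt, which methylates nicotinamide, rose from 0.474 ± 0.239 to 15.9 ± 1.11 CPM (edgeR log2 fold change 5.08, adjusted p = 2.48e-07, SE 0.23). The deacetylase gene Sirt1, which uses NAD, rose 2.24-fold, and Nmnat2, which makes NAD, went from 8.52 ± 0.553 to 17.0 ± 1.36 CPM.

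Transducers of interferon signalling were largely higher. Of 18 tested, 13 rose, beside 31.9% of all tested genes, 2 fell and 3 did not pass, and the median log2 fold change was 0.76. Those that fell were Irf1, 1.34-fold (edgeR adjusted p = 0.0019), and the low Ptpn6, 2.84-fold from 1.46 CPM in wild type (0.000769). The receptor genes Ifnar1 and Ifngr1 did not pass, nor did Socs1. With the library number as a block 3 fell, as Socs1, a feedback inhibitor of the JAK kinases, came out lower (adjusted p = 0.00142, edgeR, against 0.223 without it). Stat2 and Irf9 of the ISRE-binding complex rose, Stat2 from 102 ± 1.26 to 291 ± 8.14 CPM (1.51 on the log2 scale, SE 0.06) and Irf9 from 50.2 ± 1.39 to 113 ± 3.93 CPM (1.17, SE 0.07). Usp18, which restrains signalling at the receptor, and Irf7 had the largest changes, 5.25-fold and 5.23-fold. Stat2, Usp18 and Irf7 thus had higher fold changes than any of the 9 genes, and that of Irf9 was close to those of Parp11 and Parp14.

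**Figure D4:**
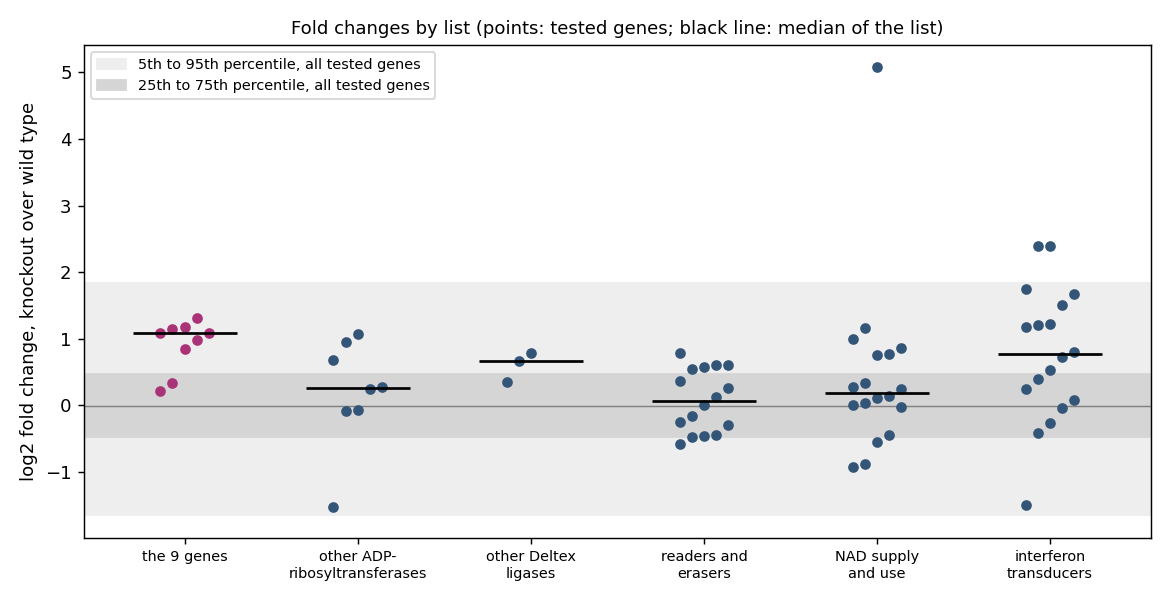
Log2 fold changes (vertical axis) of the tested genes of each list, with a black line at the list's median and grey bands for the 5th to 95th and the 25th to 75th percentiles of all tested genes. Of the 9 genes, 7 lie above the inner band, which ends at 0.47, and none lies above the outer band, which ends at 1.83.

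Likeness of pattern was measured as the Euclidean distance between log2 CPM values over the 6 libraries, each gene centred on its own mean. The nearest genes were sought outside the 9, and placeholder symbols (Gm numbers and Rik) were left out. Ranbp9 was nearest to Dtx3l (distance 0.0376), followed by Ddx58, which encodes the RNA sensor RIG-I (0.0606). Chmp1b was nearest to Parp14 (0.0455) and Ptgs2os to Parp9 (0.0641), and Ptgs2os was also second for Parp14 (0.0798). Tpd52 was second for Parp9. Irf9 was nearest to Parp11 (0.118), followed by Sdccag8. Gab2 and Susd6 were nearest to Parp12, Gpbp1l1 and Jmy to Parp4, Golph3 and Secisbp2l to Parp8, and Pdrg1 and Nprl2 to Parp3. Parp10 had no such gene closer than Ubald1, at 0.124, followed by Mnt. Among the 9 themselves, Parp9 and Parp14 were closest (0.136), with 35 tested genes outside the 9 closer to Parp9 than Parp14 was. Dtx3l was 0.1696 from Parp14 and 0.289 from Parp9. The distances weigh the difference between the groups and the shared deviations of the libraries numbered 1 alike.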

How the data were processed

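The deposited table gives, for each gene symbol, the authors' raw read counts in separate columns for the 6 libraries, with 0 columns of other samples. The submitters' processing notes name fastp 0.20.0 and STAR 2.7.1a, then HTSeq 0.11.2, limma 3.48.3 and edgeR 3.34.0, next to GRCm38 and mm10 as builds, and state no roles. Columns were matched to samples by title. Here filterByExpr of edgeR 4.0.16 (R 4.3.3) left 14877 genes, scaled by TMM and compared with glmQLFit and glmQLFTest, with Benjamini-Hochberg adjustment over them and a threshold of 0.05. CPM used TMM-scaled library sizes, and log2 CPM a prior count of 2. Standard errors were derived from each fold change and F value. DESeq2 1.42.0, another scaling, no filter, a test against a 1.5-fold change and fits on fewer libraries were alternatives.

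The members and lists were chosen with earlier results of these data known. Named genes were the 9, their family, Stat2, Irf9, Ppp2ca and Ppp2cb, the 3 largest called changes of each other list, the 2 genes nearest in pattern to each of the 9 and the tested neighbours. Markers, and the transducers that fell or did not pass, are named as well. Some genes of the lists are counted but not reported by name here. Positions, exons and overlaps came from GENCODE M21 (GRCm38), and promoters from RefSeq (GRCm38.p6).

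Replicates within a group differed by more than sampling noise (chi-square per degree of freedom 3.41 to 48.4 over genes with at least 20 counts in a pair), and all were kept. Nothing in the labels says that replicates were separate cultures, so the p-values may reflect technical spread alone. Deviations from the group means correlated between libraries 1, 2 and 3 of the groups at 0.443, 0.161 and 0.150 across genes. The numbers come from the titles and were taken to pair the libraries only in an alternative fit, as a block. The main fit and the permutation test did not use the pairing. Only number 1 was set apart, since wild type 3 correlated with knockout 2 at 0.189 and wild type 2 with knockout 3 at 0.150. Counts carry no molecular identifiers, and floors cover counting error only.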

Additional observations from a re-analysis of the deposited data

How the results depend on the processing

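All 9 genes kept their direction under the 12 alternatives tried. Dtx3l, Parp4, Parp9, Parp10, Parp11, Parp12 and Parp14 also kept their calls, with log2 fold changes from 0.78 (Parp12) to 1.37 (Dtx3l). Against a fold change of 1.5 the calls fell to 3966 genes, 2009 higher and 1957 lower, with 7 of the 9 genes still called. Parp3 (0.21) and Parp8 (0.33) lost theirs there. Parp3 also lost its call with upper-quartile factors (0.15) and without any library but knockout 1 (0.19 to 0.22; 0.27 without knockout 1, where the call held). Against a fold change of 1.5, readers and erasers had 1 called higher and 0 lower, and NAD supply and use had 5 and 1. The other ADP-ribosyltransferases had 2 higher, with Parp1 still called lower, and the other Deltex ligases had 0 higher. Of the transducers 1 was called lower, and Stat2, Irf7 and Irf9 were among those still called higher. Readers and erasers had 7 lower with upper-quartile factors and 7 with the replicate block. The block changed no call among the 9 genes. Signs turned only for genes that had not passed. With upper-quartile factors these were Gm4032 (-0.00654) and Hspbap1 (-6.20e-04). Without both libraries numbered 1 it was Cracr2a (0.11). Over the libraries left out in turn, Cracr2a ran from -0.18 to 0.0927, Gm15564 from -0.37 to 0.12, Gm4032 from -0.36 to 0.42 and Parp2 from -0.14 to 0.00731. The cause of these changes was not tested.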
